A study of Mus musculus with 7 samples.

Results

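Respiratory complex I (NADH:ubiquinone oxidoreductase) was examined through its nuclear subunit genes in the prefrontal cortex (PFC) of female mice. Members were the protein-coding rows of the deposited count table whose symbols begin with Ndufa, Ndufab, Ndufb, Ndufc, Ndufs or Ndufv followed by a digit, and the assembly factors (Ndufaf) were left out. The rule found 40 genes among 21885 protein-coding genes and 55416 genes in all. Of these, 39 passed the filter on low counts. The remaining gene, Ndufb11b, had 0 counts in every library and was not tested.

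Complex I is the entry point of electrons from NADH into the mitochondrial respiratory chain. Its peripheral arm oxidises NADH and passes the electrons along iron-sulphur clusters to ubiquinone, and its membrane arm pumps protons. Most subunits are encoded in the nucleus and imported, while the central proton-pumping subunits are encoded by mitochondrial DNA, so the complex draws on both genomes, and neurons depend heavily on it for ATP.

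The study compared the reference and alternative alleles of the human long non-coding RNA PAXIP1-AS1, which has no mouse counterpart. C57BL/6 wild-type females received bilateral PFC injections of recombinant adeno-associated virus (AAV), and tissue was profiled by poly(A)-selected RNA-seq. The Ctr group (n = 3 libraries) received an empty AAV vector, the Ref group (n = 2) the C allele and the Alt group (n = 2) the G allele, both alleles driven by the neuron-specific human synapsin promoter, and every vector carried an EGFP reporter under that promoter, so that uninfected cells and non-neuronal cells of the same tissue contribute RNA. Age and the interval from injection to RNA collection were not given in the sources used here, and the viral transcript was not analysed here. The labels do not say whether libraries came from separate animals, so p-values measure the spread between these libraries only.

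Library totals ran from 16655697 to 20750857 counts, and complex I subunits took 0.121% to 0.150% of the counts in the Ctr libraries, 0.114% and 0.133% in Ref, and 0.0576% (replicate 1) and 0.0937% (replicate 2) in Alt. Alt replicate 1 stood apart: it had the smallest total, and the chi-square per degree of freedom between the Alt libraries was 59.7, against 19.0 to 25.6 between replicates of the other groups. None of these pairs agreed within sampling noise. All 12 neuron markers were detected in every library, with a summed level of 10820 to 11030 CPM, counts scaled to library size, in Ctr, 10600 to 11590 in Ref and 12180 to 13020 in Alt. The most abundant markers weigh most in these sums. The median over the 12 markers of log2 CPM minus the Ctr mean was -0.07 and 0.02 in Alt, and -0.02 to 0.004 in Ctr. In Alt versus Ctr 7 of the 12 log2 fold changes were negative and 5 positive. No marker of any of the 5 cell types examined had 0 counts in any library.

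Short stretches around sequence matches of transcription factor motifs are shown first, because NRF1, ETS factors such as GABP, and YY1 are known regulators of nuclear genes for mitochondrial proteins. RefSeq start-site windows (GRCm38.p6, 250 bases before to 50 after the start) were available for 34 members. The windows were searched on both strands for the letters of 4 motifs, GCATGCGC (NRF1), CCGGAAGT (ETS), AAGATGGC (YY1) and GGGCGGGG (SP1). In Ndufa11 the NRF1 letters, close to a palindrome, matched at overlapping positions on both strands and were counted for 1 member. The YY1 letters were found in 7 of 34 members (20.6%) and in 2.75% of all 32851 windows. NRF1 letters were present in 3 members (8.82%, against 2.71% of windows), ETS letters in 1 member (2.94%, against 3.89%) and SP1 letters in 6 members (17.6%, against 17.6%). These matches are descriptions of letters, not binding sites. The median log2 fold change in Alt versus Ctr was -0.81 for the 7 members with the YY1 letters and -0.86 for the 27 without them. The 7 YY1 matches lay on the gene's own strand and began 23 to 39 bases after the start site, and in all 7 the ATG inside the match was an annotated start codon in GENCODE. In the lines below, 30 bases are printed 5′ to 3′ on the gene's strand, with the match in capitals, first for YY1, then for NRF1 and ETS, while SP1 matches are not shown.
Ndufa3, chr7:3617377-3617406, plus strand: cttgtcgccgccaagaacAAGATGGCcggg
Ndufa9, chr6:126849104-126849133, minus strand: cgtgaggcattgtgggagAAGATGGCggcc
Ndufb8, chr19:44555393-44555422, minus strand: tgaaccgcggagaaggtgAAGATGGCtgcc
Ndufc1, chr3:51408922-51408951, minus strand: aggcggagcctgcggaacAAGATGGCgccg
Ndufs4, chr13:114388048-114388077, minus strand: ctggcgtttgcctacaggAAGATGGCggcg
Ndufs6, chr13:73328438-73328467, minus strand: gggtcaagggtcaccggcAAGATGGCggcg
Ndufs7, chr10:80249455-80249484, plus strand: tgtctgaaggccgaggccAAGATGGCggcg
Ndufa6 (NRF1), chr15:82354363-82354392, minus strand: cggtgtttccgcggtagaGCATGCGCattg
Ndufa8 (NRF1), chr2:36049335-36049364, minus strand: ttgcgcgtcgctggagacGCATGCGCagat
Ndufa11 (NRF1), chr17:56717684-56717713, plus strand: ggtacaaacctgcactgcGCGCATGCgcgc
Ndufs3 (ETS), chr2:90904710-90904739, minus strand: gagtcactgcacatttccACTTCCGGtccg

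All 39 tested subunits had lower fitted levels in Alt than in Ctr. The log2 fold changes (Alt over Ctr) ran from -2.57 for Ndufa3 to -0.30 for Ndufb2, with a median of -0.81, a fold of 0.569. At an unadjusted p below 0.05 in edgeR's quasi-likelihood test, 25 of 39 were lower, where 10.3% of all 17254 genes tested were. After Benjamini-Hochberg adjustment over all genes, edgeR called 0 members in Alt versus Ctr and 0% of all genes, the lowest adjusted p of a member being 0.120. DESeq2 on the same genes called 12 members lower at an adjusted p below 0.05 (27 at the unadjusted threshold), against 2.60% of all genes. The median log2 fold change over all genes tested was -0.03. In bulk tissue, fewer cells of a type and less RNA per cell cannot be told apart. Below, a gene that passed, or is called lower or higher, did so at the unadjusted threshold in edgeR, while the p-values printed are adjusted over all genes.

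Against Ref, which is a separate comparison that uses the same Alt libraries, all 39 log2 fold changes were negative again, with a median of -0.75. At the unadjusted threshold 21 of 39 were lower, against 8.83% of all genes. The adjusted threshold was passed by 0 members and by 0.00580% of all genes in edgeR, and by 5 members (Ndufa3, Ndufa10, Ndufa11, Ndufb7 and Ndufb10) in DESeq2, against 1.08% of all genes. Between Ref and Ctr, 25 subunits had negative and 14 positive log2 fold changes, with a median of -0.06 and a range from -0.51 (Ndufb1) to 0.45 (Ndufb9). In that comparison 0 members passed the unadjusted threshold in edgeR or in DESeq2, against 3.14% of all genes in either direction in edgeR, and 0 members passed the adjusted one, against 0% of all genes.

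**Figure D1:**
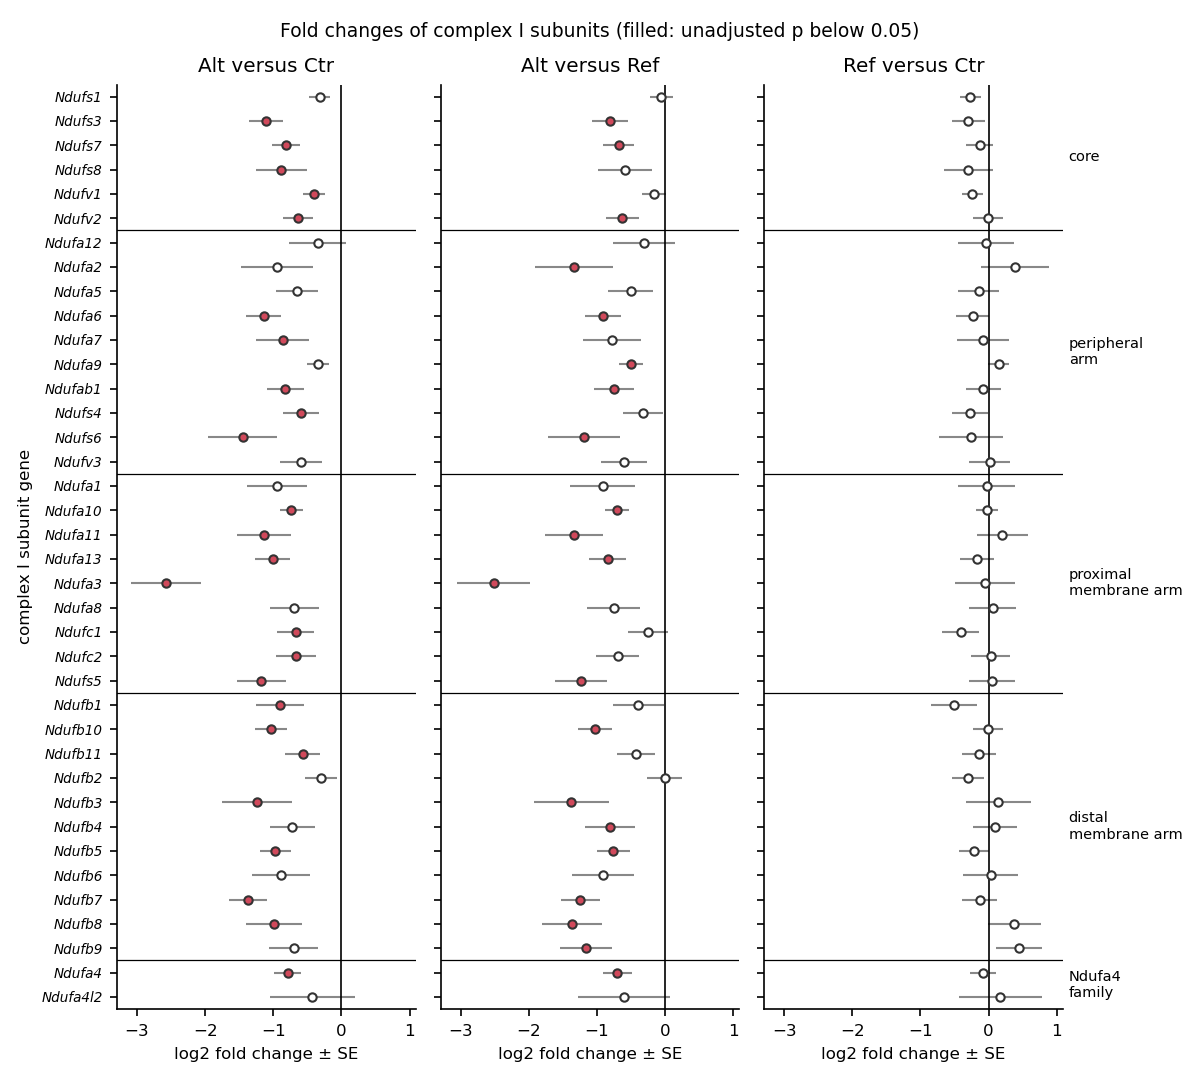
Log2 fold changes (x axis, with standard errors as bars) of 38 of the 39 tested complex I subunits (rows, grouped by position in the complex) in Alt versus Ctr, Alt versus Ref and Ref versus Ctr. Filled points have an unadjusted p below 0.05: 25 in the left panel, 21 in the middle and 0 in the right, where the points lie on both sides of 0.

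The 2 Alt libraries differed in how far the subunits lay from the controls. Measured as log2 CPM minus the mean of the 3 Ctr libraries, the 39 members had a median of -1.20 in Alt replicate 1 and of -0.38 in its partner. The corresponding medians were 0.22, -0.13 and 0.02 in the Ctr libraries and 0.02 and -0.16 in Ref. In each Alt library 38 of 39 members lay below the Ctr mean, the exceptions being Ndufa4l2 in replicate 1 and Ndufa12 in replicate 2. Both Alt libraries were below all 5 Ctr and Ref libraries for 19 of 39 members, and for 13.1% of all genes tested. Without Alt replicate 1, 11 members were lower than Ctr at the unadjusted threshold (4.46% of all genes) with a median log2 fold change of -0.46, and 8 were lower than Ref (4.40% of all genes) with a median of -0.44. In these fits the lone Alt library was assumed to vary like the other groups. The 11 were Ndufa3, Ndufa4, Ndufa6, Ndufa10, Ndufa13, Ndufb5, Ndufb7, Ndufb10, Ndufs3, Ndufs5 and Ndufs7, and the other members called lower than Ctr did not pass without that library. Leaving out a Ctr library also ended calls, those of Ndufa7, Ndufb1, Ndufb3, Ndufb8, Ndufb11, Ndufc2, Ndufs4, Ndufs8, Ndufv1 and Ndufv2 for replicate 1, of Ndufb3, Ndufb11, Ndufc1, Ndufs4, Ndufs8 and Ndufv1 for replicate 2, and of Ndufa7, Ndufb3, Ndufb8, Ndufb11, Ndufc2 and Ndufs8 for replicate 3.

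**Figure D2:**
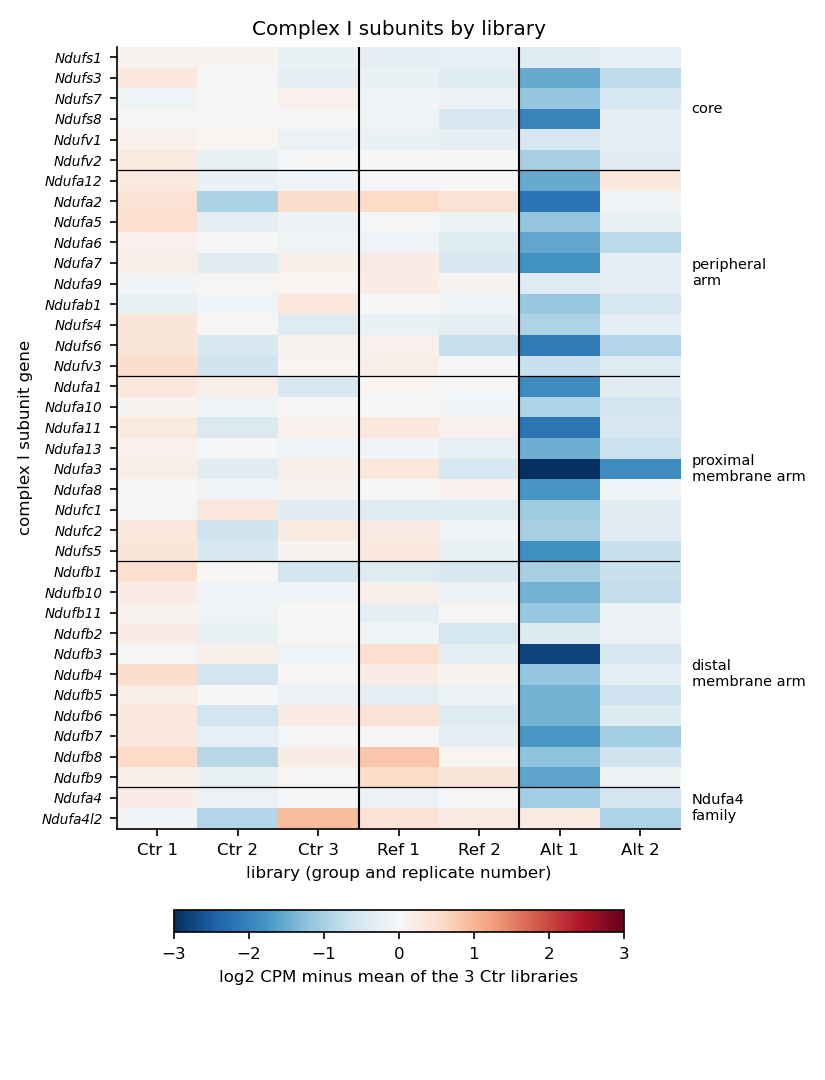
Log2 CPM minus the mean of the 3 Ctr libraries (colour) for 38 of the 39 tested complex I subunits (rows) in each of the 7 libraries (columns). Alt replicate 1 is the darkest blue column and Alt replicate 2 is paler; the scale stops at -3, and Ndufa3 in Alt replicate 1 lies beyond it at -3.49.

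The 7 core subunits, which carry the flavin and the iron-sulphur clusters, had a median log2 fold change of -0.63 in Alt versus Ctr, and 5 of 7 were lower at the unadjusted threshold. Ndufs3, a core subunit of the ubiquinone-reducing module, had 59.1, 47.0 and 39.4 CPM in Ctr, 41.6 and 37.3 in Ref, and 16.7 and 28.3 in Alt. Both Alt libraries were below all the others, and the log2 fold change against Ctr was -1.10 (SE 0.25, adjusted p = 0.120 in edgeR). Ndufs7, which holds the last iron-sulphur cluster before ubiquinone, had 41.6, 44.9 and 49.7 CPM in Ctr, 42.6 and 40.2 in Ref, and 20.2 and 31.4 in Alt. Both Alt values were again below all others, while Ctr and Ref overlapped, and its log2 fold change was -0.81 (SE 0.21, adjusted p = 0.120 in edgeR). With correction for mRNA length, described further on, it was -0.22 and did not pass.

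Ndufs8, another iron-sulphur subunit next to Ndufs7, had 37.7, 36.1 and 36.8 CPM in Ctr, 33.7 and 26.4 in Ref, and 9.11 and 30.7 in Alt. Here the Alt libraries lay far apart, and replicate 2 sat between the Ref values. The fitted log2 fold change was -0.88 (SE 0.37, adjusted p = 0.216 in edgeR) and -0.26 without Alt replicate 1. Ndufv2, an iron-sulphur subunit of the NADH-oxidising tip, had 71.5, 51.1 and 57.2 CPM in Ctr, 60.1 and 59.0 in Ref, and 29.5 and 47.7 in Alt. Both Alt values were the lowest of the 7, with a log2 fold change of -0.63 (SE 0.22, adjusted p = 0.160 in edgeR). It no longer passed without Alt replicate 1 (-0.33), without Ctr replicate 1 (-0.49) or with correction for mRNA length (-0.29).

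Ndufv1, the flavin-binding subunit that oxidises NADH, had 89.9, 85.6 and 72.6 CPM in Ctr, 71.3 and 68.7 in Ref, and 58.5 and 66.7 in Alt. The Alt libraries were lowest, but close to the Ref libraries. Its log2 fold change was -0.40 against Ctr (SE 0.16, adjusted p = 0.192 in edgeR) and -0.16 against Ref (SE 0.17, adjusted p = 0.700). Without Alt replicate 1 (-0.31), Ctr replicate 1 (-0.34) or Ctr replicate 2 (-0.37) it did not pass against Ctr. Ndufs1, the largest iron-sulphur subunit, did not pass the threshold. It had 134, 133 and 109 CPM in Ctr, 103 and 106 in Ref, and 94.6 and 106 in Alt, so that Ref and Alt lay side by side below Ctr (log2 fold change of Alt against Ctr -0.32, SE 0.15, adjusted p = 0.275 in edgeR; of Ref against Ctr -0.27, SE 0.15, adjusted p = 1).

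Among the 10 accessory subunits of the peripheral arm, 5 were lower in Alt than in Ctr at the unadjusted threshold, with a median log2 fold change of -0.74 over the 10. Ndufa6, a LYR-motif protein that binds the mitochondrial acyl carrier protein, had 27.3, 25.0 and 23.0 CPM in Ctr, 23.4 and 19.3 in Ref, and 8.46 and 14.2 in Alt. All Alt values were below all others, with a log2 fold change of -1.14 (SE 0.25, adjusted p = 0.120 in edgeR). Ndufab1, that acyl carrier protein, had 13.3, 14.5 and 19.1 CPM in Ctr, 15.2 and 14.4 in Ref, and 6.96 and 10.7 in Alt. The Alt values were the lowest and both Ref values lay within the Ctr range, and the log2 fold change was -0.82 (SE 0.27, adjusted p = 0.145 in edgeR). A processed pseudogene, Ndufab1-ps, had 2 to 69 counts per library, and reads of such near-identical copies may be split, so the Ndufab1 value is uncertain. The same limit holds for Ndufs5 (Ndufs5-ps, 2 to 21 counts per library), Ndufb4 (Ndufb4c, 1 to 17) and Ndufs6 (Ndufs6b, 0 to 3).

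Ndufa12, which joins the peripheral arm late in assembly, had the highest p of this group. It had 13.8, 9.80 and 10.5 CPM in Ctr, 10.9 and 11.1 in Ref, and 3.84 and 13.9 in Alt. The Alt libraries were the lowest and the highest of the 7, and the log2 fold change was -0.35 (SE 0.42, adjusted p = 0.693 in edgeR). Without Alt replicate 1 it became 0.29. Its processed pseudogene Ndufa12-ps had 44 to 166 counts per library, which makes this value uncertain too. The other members short of the threshold in Alt versus Ctr were Ndufa2 (log2 fold change -0.95), Ndufa5 (-0.65), Ndufa9 (-0.35) and Ndufv3 (-0.59). Of these, Ndufa2 and Ndufa9 were lower in Alt than in Ref at the unadjusted threshold (-1.33 with adjusted p = 0.304 and -0.49 with adjusted p = 0.244 in edgeR). The subunits that passed in Alt versus Ctr and are not described above, Ndufa7, Ndufs4 and Ndufs6, had log2 fold changes of -0.86, -0.59 and -1.45. Ndufs4, mutated in human Leigh syndrome, and Ndufs6, a zinc-binding subunit, are both required for assembly of the NADH-oxidising module.

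The proximal part of the membrane arm had a median log2 fold change of -0.94 over 9 accessory subunits in Alt versus Ctr, of which 7 passed, and of -0.84 in Alt versus Ref. Ndufa3, a small single-pass membrane subunit (listed at chr7:3620372-3623326, plus strand, in the deposited table, whose mouse build was not given in the sources used here), had the lowest fold change of all members. It had 7.84, 5.42 and 7.71 CPM in Ctr, 8.61 and 4.81 in Ref, and 0.520 and 1.79 in Alt, the last from 8 and 32 counts. Every Alt value was far below every other value, with a log2 fold change of -2.57 (SE 0.52, adjusted p = 0.120 in edgeR), a fold of 0.168. Against Ref it was -2.52 (SE 0.54, adjusted p = 0.229 in edgeR). Its adjusted p in Alt versus Ctr ran from 1.19e-05 to 0.406 over the 16 alternative analyses.

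Ndufa10, a subunit with a nucleoside-kinase-like fold, had 81.9, 71.3 and 79.5 CPM in Ctr, 78.5 and 73.4 in Ref, and 40.9 and 52.3 in Alt. Alt lay below all other libraries and Ref within the Ctr range, with a log2 fold change of -0.73 (SE 0.17, adjusted p = 0.120 in edgeR). Ndufa8, a cysteine-rich subunit of the intermembrane space, had the highest p of this group. It had 29.5, 27.0 and 30.9 CPM in Ctr, 29.1 and 31.7 in Ref, and 8.52 and 27.4 in Alt. Alt replicate 2 lay within the Ctr range, and the log2 fold change was -0.69 (SE 0.36, adjusted p = 0.304 in edgeR) and -0.09 without Alt replicate 1. Ndufa1, an X-linked membrane subunit, also missed the threshold (-0.94, SE 0.44, adjusted p = 0.260 in edgeR). Of the rest, Ndufa11, Ndufa13, Ndufc1, Ndufc2 and Ndufs5 had log2 fold changes from -1.18 (Ndufs5) to -0.67 (Ndufc1 and Ndufc2).

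In the distal part of the membrane arm 7 of 11 accessory subunits passed, with a median log2 fold change of -0.90 in Alt versus Ctr and of -0.91 in Alt versus Ref. Ndufb7, a cysteine-rich subunit on the intermembrane-space side, had 30.0, 20.3 and 23.0 CPM in Ctr, 24.7 and 20.0 in Ref, and 7.15 and 11.7 in Alt. Alt was below all other libraries, Ctr and Ref overlapped, and the log2 fold change was -1.37 (SE 0.28, adjusted p = 0.120 in edgeR). Ndufb10, a neighbour of the same cysteine-rich type, had 47.4, 38.0 and 37.2 CPM in Ctr, 45.3 and 35.9 in Ref, and 15.2 and 24.5 in Alt. Here too only Alt stood apart, with a log2 fold change of -1.04 (SE 0.24, adjusted p = 0.120 in edgeR). Ndufb2, a small membrane subunit, had the highest p, with 22.1, 16.2 and 19.2 CPM in Ctr, 18.0 and 13.2 in Ref, and 14.3 and 16.8 in Alt. Its Alt and Ref libraries overlapped, the log2 fold change was -0.30 against Ctr (SE 0.23, adjusted p = 0.513 in edgeR), and against Ref it was -0.00 (SE 0.26, adjusted p = 0.999).

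Also short of the threshold against Ctr were Ndufb4 (-0.72), Ndufb6 (-0.89) and Ndufb9 (-0.70), while Ndufb4 and Ndufb9 passed against Ref (adjusted p = 0.316 and adjusted p = 0.236 in edgeR). The group's other members that passed, Ndufb1, Ndufb3, Ndufb5, Ndufb8 and Ndufb11, had log2 fold changes from -1.23 (Ndufb3) to -0.57 (Ndufb11). In Ndufb3, which had 8.92 to 10.7 CPM in Ctr and 7.91 to 13.4 in Ref, Alt replicate 1 had 1.30 and replicate 2 had 6.80. Ndufb1 shares 1081 bases of its span with Cpsf2 on the opposite strand, and reads of the overlapping genes cannot be told apart if strand was not used in counting. In all, 14 tested members share bases with a protein-coding gene on the opposite strand. Ndufa13, of the proximal membrane arm, lies with its whole span of 8379 bases inside Yjefn3 on the same strand (60 to 230 counts per library, against 141 to 565 for Ndufa13), which strand cannot separate, so its value is uncertain. Ndufb2, Ndufb8 and Ndufb9 share 4022, 4260 and 3604 bases of their spans with other protein-coding genes on the same strand, which had 0 to 1 counts per library. How shared reads were counted was not given in the sources used here, so these values are uncertain too.

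Ndufa4 and Ndufa4l2 carry complex I names by history. Ndufa4 is now placed in cytochrome c oxidase (complex IV), and Ndufa4l2 is its hypoxia-inducible relative. Ndufa4 had 74.2, 56.3 and 61.8 CPM in Ctr, 56.3 and 64.5 in Ref, and 31.0 and 43.2 in Alt. The Alt values were below all others, with a log2 fold change of -0.79 (SE 0.20, adjusted p = 0.120 in edgeR). Ndufa4l2 was low throughout, at 2.28, 1.28 and 4.78 CPM in Ctr, 3.34 and 2.95 in Ref, and 2.93 and 1.23 in Alt. Both groups that received an allele overlapped Ctr, although Alt replicate 2 was the lowest of the 7 and both Alt values lay below both Ref values, and the log2 fold change was -0.43 (SE 0.62, adjusted p = 0.758 in edgeR).

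Levels between genes were compared per length, as the authors' FPKM, which divides counts by gene length and library total. In Ctr, high values were those of Ndufa4 at 47.9 ± 7.33 (SD, n = 3), Ndufb11 at 42.5 ± 3.87 and Ndufc2 at 41.3 ± 13.3, whose libraries overlap. The lowest tested were Ndufab1 at 2.34 ± 0.472 and Ndufa4l2 at 2.63 ± 1.72. The deposited lengths merge all exons (6883 bases for Ndufab1), so FPKM of genes with long rare exons is low.

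The members' mRNAs are short, and short mRNAs as a class were lower in Alt. Taking 1 reference transcript per gene (38 members matched), the members' median mRNA length was 921 bases (419 to 4371), against 3100 bases over 14448 protein-coding genes tested. Across genes, which are not independent replicates and share the same libraries, the log2 fold change in Alt versus Ctr was higher for longer mRNAs, with Spearman's rho of 0.662 over the 38 members and 0.538 over all protein-coding genes. Among the 2795 protein-coding genes between 561 and 1795 bases, the range that holds the middle of the members, the median log2 fold change was -0.51 and 30.5% were lower at the unadjusted threshold. For those genes the Alt library medians were -0.80 and -0.24.

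In the length classes that follow, the median of the members was below that of the other genes. Up to 750 bases, 15 members had a median log2 fold change of -0.99 and 11 of them passed, while 286 other genes had a median of -0.73 and 39.9% passed. From 750 to 1000 bases, 7 members had a median of -0.69 and 3 of them passed, while 419 other genes had a median of -0.67 and 36.5% passed. In Alt replicate 2 the members of that class had a median of -0.28 relative to Ctr, above the -0.34 of the other genes. From 1000 to 1500 bases the medians were -0.88 for 7 members and -0.52 for 1251 others, with 5 members and 30.6% of the others past the threshold, and from 1500 to 2500 bases they were -0.59 for 6 members and -0.30 for 3255 others, with 4 members and 18.4% of the others past it. Above 6000 bases, where there were no members, the median of 1863 genes was 0.41.

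**Figure D3:**
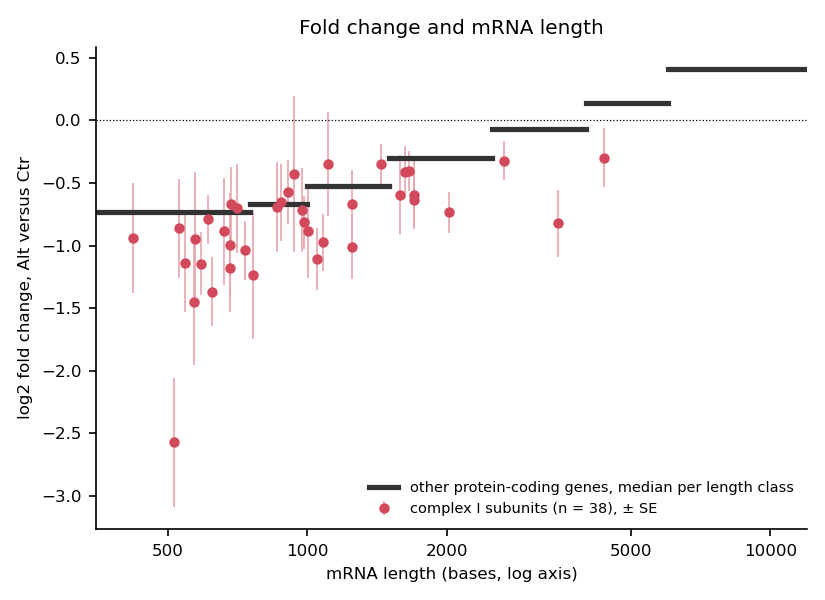
Log2 fold change in Alt versus Ctr (y axis) against the length of 1 reference mRNA per gene (x axis, log scale) for 38 complex I subunits (points, with standard errors), with horizontal lines for the median of other protein-coding genes in 7 length classes. The lines climb from -0.73 in the shortest class to 0.41 in the longest, and Ndufa3 is the lowest point.

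The fits were repeated with offsets that removed the dependence on mRNA length in each library, an analysis chosen after the data were seen. With these, 9 members were lower in Alt than in Ctr at the unadjusted threshold (6.60% of all genes were), the median log2 fold change of the 39 was -0.22, and 33 of 39 were negative. Ndufa3 remained lowest at -1.87 (adjusted p = 0.114 in edgeR). The others that passed with a corrected value were Ndufab1 (-0.80), Ndufb7 (-0.62), Ndufs3 (-0.54), Ndufa13 (-0.53), Ndufs5 (-0.49), Ndufa10 (-0.47) and Ndufb5 (-0.43). The transcript taken for Ndufab1 had 3479 bases, long for a member, so its value hardly moved (-0.82 without correction). Its corrected values, against Ctr and against Ref, depend on that choice of transcript. Of the members described with values in every library, Ndufs7 (-0.22), Ndufs8 (-0.41), Ndufv1 (-0.02), Ndufv2 (-0.29), Ndufa6 (-0.40), Ndufb10 (-0.34) and Ndufa4 (0.0022) passed without the correction and not with it. Ndufb1 (-0.90) had no matched mRNA length, so its value is not corrected. Against Ref, Ndufa3, Ndufa10, Ndufa11 and Ndufab1 passed (4 members, where 4.43% of all genes did), and the median of the 39 was -0.13. What gave rise to the relation with length was not tested.

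**Figure D4:**
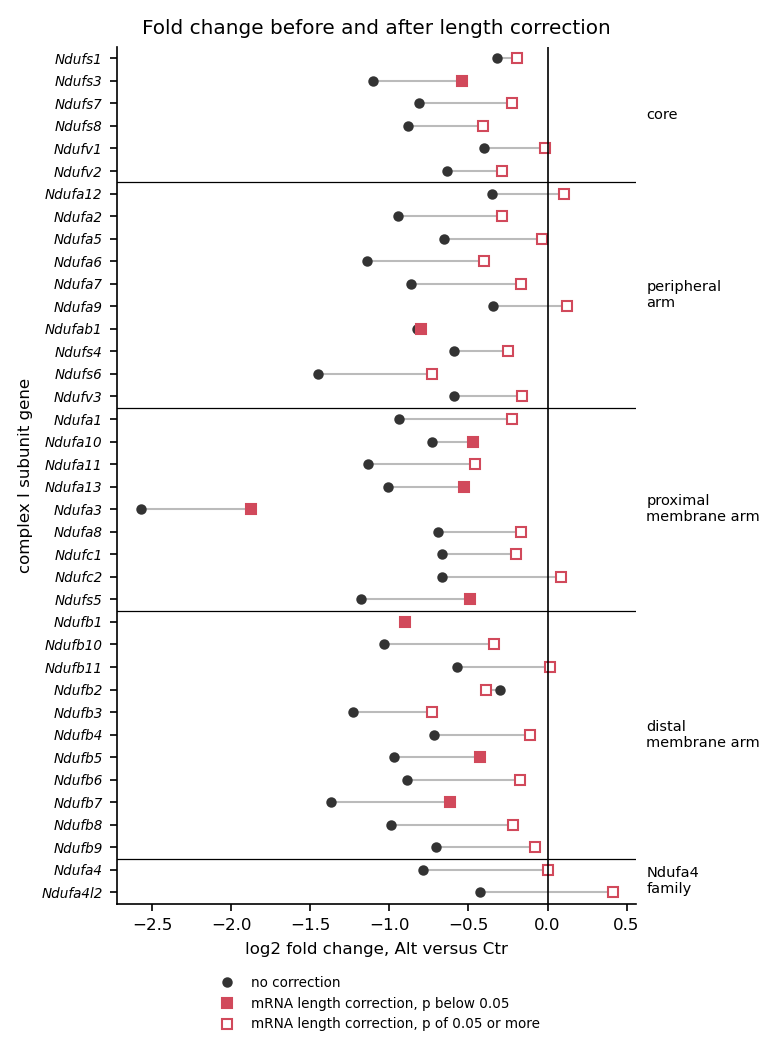
Log2 fold changes of 38 of the 39 tested complex I subunits in Alt versus Ctr (x axis) without correction (dark points) and with offsets for mRNA length (squares, filled where the unadjusted p is below 0.05). The median of the 39 moves from -0.81 to -0.22, and 9 squares are filled, Ndufa3 standing apart at -1.87.

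In Alt versus Ctr, 7 members (Ndufa3, Ndufa10, Ndufa13, Ndufb5, Ndufb7, Ndufs3 and Ndufs5) were lower at the unadjusted threshold in all 16 alternative analyses, which include both length corrections and leaving out each library. Against Ref, Ndufa3, Ndufa10 and Ndufa11 were lower in all 15. Of the protein-coding genes with a p in every analysis, 277 of 14079 (1.97%) met the same rule against Ctr and 192 of 14057 (1.37%) against Ref.

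The 7 complex I subunits encoded by mitochondrial DNA, none of them a member, had positive log2 fold changes in Alt versus Ctr throughout, with a median of 0.33, and 2 of 7 were higher at the unadjusted threshold, where 9.45% of all genes were. mt-Nd4l had 28.3, 30.0 and 32.3 CPM in Ctr, 40.6 and 67.5 in Ref, and 74.1 and 54.9 in Alt. It was higher in Alt (log2 fold change 1.09, SE 0.22, adjusted p = 0.120 in edgeR) and in Ref (0.84, adjusted p = 1 in edgeR) than in Ctr. mt-Nd5, one of the proton-pumping subunits, had a log2 fold change of 0.91 (SE 0.22, adjusted p = 0.120 in edgeR), and mt-Nd3 one of 0.51 (SE 0.23, adjusted p = 0.255). mt-Nd3 and mt-Nd4l are listed at 348 and 297 bases, shorter than any tested member. Nuclear copies of mitochondrial DNA can share reads with these genes, and mt-Nd4l overlaps mt-Nd4, so their values are uncertain. Library medians over the 7 were 0.14 and 0.53 in Alt replicates 1 and 2, -0.11 and 0.39 in Ref and -0.14 to 0.24 in Ctr, so that the groups overlapped. Against Ref, 5 of the 7 log2 fold changes were positive and 2 negative, with a median of 0.26.

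**Figure D5:**
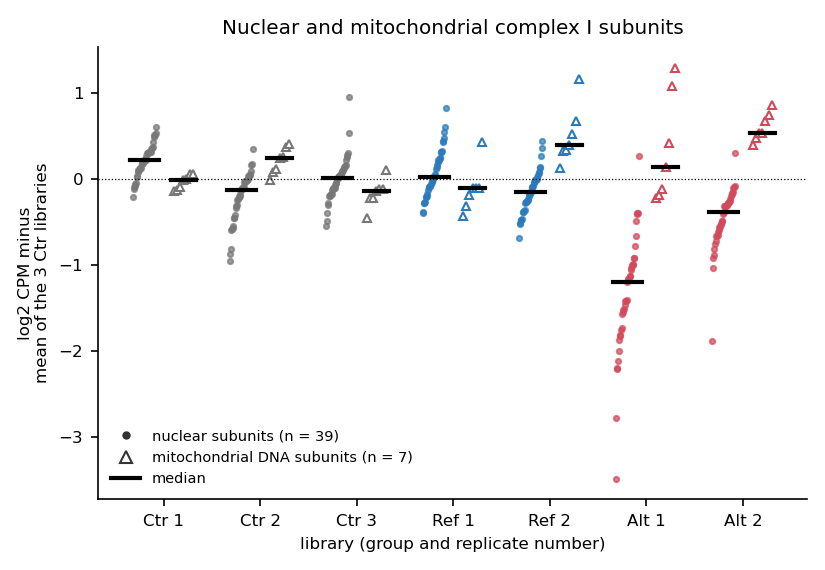
Log2 CPM minus the mean of the 3 Ctr libraries (y axis) in each library (x axis) for the 39 nuclear complex I subunits (filled circles) and the 7 encoded by mitochondrial DNA (open triangles), with medians as bars. In Alt the nuclear medians are -1.20 and -0.38 and the mitochondrial ones 0.14 and 0.53.

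Assembly factors build the complex and do not stay in it. Of the 17 tested, 16 had negative log2 fold changes in Alt versus Ctr with a median of -0.46, and 5 (29.4%) were lower at the unadjusted threshold, against 10.3% of all genes. Ndufaf5, which modifies Ndufs7 during assembly, had 13.7, 14.0 and 9.62 CPM in Ctr, 11.9 or more in Ref, and 5.59 and 6.19 in Alt, with a log2 fold change of -1.07 (SE 0.27, adjusted p = 0.120 in edgeR). Both Alt libraries were below all others and close to each other. Ndufaf3, needed early in assembly of the ubiquinone module, had -0.81 (SE 0.30, adjusted p = 0.170), and Tmem126b, of the membrane-arm assembly complex, had -0.55 (SE 0.21, adjusted p = 0.178). Ndufaf2 (-1.49) and Ndufaf7 (-0.62) were lower too. Tmem126b was also the 1 factor lower in Ref than in Ctr (-0.60, adjusted p = 1 in edgeR).

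Among 15 regulators of mitochondrial gene expression, 1 (6.67%) was lower in Alt than in Ctr, a smaller share than the 10.3% of all genes. It was Tfb2m, a transcription initiation factor for mitochondrial DNA (log2 fold change -0.79, SE 0.26, adjusted p = 0.143 in edgeR). Ppargc1a, the coactivator PGC-1α, had 0.38 (SE 0.18, adjusted p = 0.263), Tfam had -0.36 (SE 0.21, adjusted p = 0.364), and the median of the 15 was -0.04. Nrf1, Gabpa and Yy1, whose motifs were searched above, had -0.04, 0.22 and 0.24, none past the threshold.

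Cell type markers were counted in Alt versus Ctr in the same way, where 10.3% of all genes were lower and 9.45% higher. Of 12 neuron markers 1 was lower (Tubb3, -0.38) and 3 were higher (Map2 0.56, Camk2a 0.32, Slc17a7 0.32). Of 10 microglia markers 4 were lower, C1qa (-1.09), Trem2 (-0.99), C1qb (-0.81) and C1qc (-0.65), and Cx3cr1 was higher (0.36), with summed levels of 485 to 548 CPM in Ctr, 561 to 577 in Ref and 448 to 506 in Alt. The median over the 10 markers of log2 CPM minus the Ctr mean was -0.49 and -0.26 in Alt replicates 1 and 2. It was -0.075 to 0.026 in Ctr, and 0.16 and 0.07 in Ref. Oligodendrocyte markers had summed levels of 2425 to 3431 CPM in Ctr, 4101 to 5101 in Ref and 2374 to 2904 in Alt. In Alt versus Ctr 2 of 10 were lower (Mbp -0.51, Mag -0.38). In Alt versus Ref 8 of 10 were lower, against 8.83% of all genes. In Ref versus Ctr 8 of 10 were higher, with a median log2 fold change of 0.78, and 3.14% of all genes passed in either direction. Of 9 astrocyte markers 1 was lower (Aldoc, -0.43) and 1 higher (Slc1a2, 0.86), with sums of 5463 to 7096 CPM in Ctr, 7466 to 9008 in Ref and 8211 to 11450 in Alt. Slc1a2, a glutamate transporter, made up most of these sums, with 9528 CPM in Alt replicate 1 and 5964 in replicate 2. The median over the 9 markers of log2 CPM minus the Ctr mean was -0.05 and 0.14 in Alt, within the -0.10 to 0.17 of Ctr, and 0.29 and 0.33 in Ref. Of 10 endothelial and mural markers 2 were higher (Flt1 0.56, Kdr 0.83), with sums of 463 to 568 CPM in Ctr, 556 to 671 in Ref and 675 to 707 in Alt. The part of cell composition in the complex I values was not tested.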

How the data were processed

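Poly(A)-selected RNA of mouse PFC was sequenced with an Illumina TruSeq kit that marks strand. The submitters' processing notes name STAR, featureCounts and the build hg19, although the rows are mouse genes, and the strand setting and versions were not given in the sources used here. The authors deposited raw counts per gene with TPM and FPKM (FPKM divides counts by deposited gene length and library total), 1 column per library. The deposited TPM values were not used, and FPKM served only for levels between genes.

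Counts of all 7 libraries were fitted together with edgeR 4.0.16 (R 4.3.3; TMM, filterByExpr by group, quasi-likelihood F-test, group means, 3 contrasts), with Benjamini-Hochberg adjustment over 17254 genes and a threshold of 0.05. CPM are TMM-normalized, and log2 CPM used a prior count of 2. SE is the log2 fold change divided by the root of F. Alternatives used DESeq2 1.42.0, other scaling, filters, length offsets (loess, span 0.3), the replicate number as a block, and leaving out each library. Reference mRNA lengths came from GENCODE vM21 (GRCm38), matched by Ensembl identifier, and start-site windows from RefSeq. Deposited coordinates are not on that build. Scripts were tested on simulated data.

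The members, gene lists and cell type markers were chosen with earlier results of these data known. Named with values in every library were the core subunits (1 gene is not reported here by name and is left out of the plots by gene), the Ndufa4 family and, in each accessory group, the 2 members with the lowest and the 1 with the highest p in Alt versus Ctr, with fold changes for every member short of the threshold and up to 3 genes of each other list. Ndufb3, Ndufaf2, Ndufaf7, Slc17a7, C1qc, Cx3cr1, Nrf1, Gabpa and Yy1 were added after their values were seen. Totals of 16655697 to 20750857 counts per library set counting precision only.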

Additional observations from a re-analysis of the deposited data

How the results depend on the processing

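With 2 or 3 libraries a group, precision is limited by spread between libraries. The direction of the median in Alt versus Ctr and Alt versus Ref was negative under every alternative run. In Alt versus Ctr, the main values were 25 members and a median log2 fold change of -0.81. Correction for deposited gene length gave a median of -0.56, and correction for mRNA length 9 members (6.60%) and -0.22. Leaving out 1 library gave 11 (without Alt replicate 1, 4.46% of all genes) to 35 (without Alt replicate 2, 18.9%) members and medians from -1.34 to -0.46, and 15 members without Ctr replicate 1 (6.06%). In Alt versus Ref, with 21 members and -0.75 as main values, deposited length gave 12 (5.60%) and -0.42, mRNA length 4 (4.43%) and -0.13, and leaving out 1 library 8 (without Alt replicate 1, 4.40%) to 33 (without Alt replicate 2, 17.3%) and -1.23 to -0.44, with 12 without Ref replicate 1 (2.88%). The cause of these changes was not tested. At an adjusted p below 0.05, edgeR without the low-count filter called 18 and 14 members lower in the 2 comparisons (2.86% and 2.01% of all genes), and without Alt replicate 2 it called 31 and 28 (10.8% and 8.96%). In Ref versus Ctr 1 member passed the unadjusted threshold under deposited length (Ndufv1), where 5.18% of all genes passed in either direction. Likewise 1 passed under mRNA length (Ndufs1, against 5.88% of all genes) and 1 without Ctr replicate 3 (Ndufb1, against 3.74%). Leaving out 1 library gave medians from -0.19 to 0.04.

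Among members past the unadjusted threshold, the mRNA length correction turned Ndufc2 (0.0829), Ndufb11 (0.0173) and Ndufa4 (0.00219) to positive values in Alt versus Ctr, and Ndufa4 (0.148) and Ndufa9 (0.0546) in Alt versus Ref. DESeq2 with the groups as a numeric score on protein-coding genes called 24 members lower (8.25% of genes), 10 after adjustment (1.14%). With the replicate block, 17 members were lower in Alt versus Ctr (6.10% of all genes, median -0.76), 17 in Alt versus Ref (5.25%, -0.77) and 0 in Ref versus Ctr (-0.06). Same-numbered libraries had correlations of -0.10 to 0.07 in their deviations from group means. In Ref and Alt, with 2 libraries each, the deviations are mirror images, so these values cannot decide whether the numbers pair the samples. The other scalings, the 2-group fits and robust fitting left each count within 1.5 times its main value.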
